A study of Mus musculus with 12 samples.

Results

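The arrays measured 10 genes that mark tissue macrophages or encode the complement recognition protein C1q, along the mouse cochlea from its apical through its middle to its basal turn. The genes were Csf1r, Ptprc, Emr1, Cd68, Aif1, Cd163, Mrc1, C1qa, C1qb and C1qc, taken by name from the gene symbols printed with the array's probes, and all 10 were found among 19505 genes. They carried 131 probes. The study dissected cochleae of male C57BL/6 mice aged 6 weeks, with no treatment and no altered allele, and separated each into its turns to ask how expression changes along the axis that encodes sound frequency. There were 4 arrays for the apex, 4 for the middle turn and 4 for the base, each from 25 ng of total RNA, and per the study's methods the 4 arrays of a turn came from independent mice. The labels and methods name 4 mice in all, so the turns came from the same animals, but which arrays share a mouse is not given in the sources used here and the tests took all arrays as independent. Each sample was a whole turn without its bony capsule, in which lateral wall, organ of Corti and spiral ganglion were mixed, so fewer macrophages and less RNA per macrophage cannot be told apart. All samples of a given turn were on the same slide, which held no other turn, and slide and turn cannot be told apart either. Apex array 4 and base array 2 read high for most of these genes, and the counts without them are given with the array values. Positions of genes are the span of their probes on mm9.

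Macrophages live in most tissues, where they take up debris and dying cells. In the cochlea they are known from the spiral ligament, the stria vascularis, where they lie along the capillaries, and the spiral ganglion. C1q is built from A, B and C chains, binds antibody on a target or the target itself, and starts the classical complement pathway when its partner proteases C1r and C1s are bound. Unlike most complement proteins, which come largely from the liver, C1q is made mainly by macrophages and related cells. The lineage depends on the receptor encoded by Csf1r, whose ligands are CSF1 and IL-34.

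C1qa, C1qb and C1qc showed the clearest differences between turns, and 5 of their 6 probes are shown because these 60-base sequences are what was measured. The probes of the C chain, the A chain and the B chain lay within 17136 bases of chromosome 4 on the minus strand of mm9 (from 136436578 to 136453713), and the array held no probe of another gene in that stretch. Each probe is written 5′ to 3′ as designed, with no letters in capitals.
C1qa, chr4:136453654-136453713: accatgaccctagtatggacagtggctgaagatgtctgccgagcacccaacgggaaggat
C1qa, chr4:136452409-136452468: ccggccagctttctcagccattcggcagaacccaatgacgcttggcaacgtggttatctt
C1qb, chr4:136438132-136438191: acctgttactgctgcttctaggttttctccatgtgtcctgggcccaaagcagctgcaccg
C1qb, chr4:136436578-136436637: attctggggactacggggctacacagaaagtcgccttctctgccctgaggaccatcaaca
C1qc, chr4:136448418-136448477: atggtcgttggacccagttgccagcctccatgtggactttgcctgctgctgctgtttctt
The other C1qc probe (chr4:136445766-136445825) lay further towards the 3′ end of the gene. Between apex and base, the base was brighter by 1.55-fold and 1.5-fold on the C1qa probes in the order printed, and by 1.61-fold and 1.47-fold on the C1qb probes. On the printed C1qc probe the base was brighter by 1.19-fold, and on the other by 1.52-fold.

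Of the 10 genes, 7 were called higher in the base than in the apex by the rule given below, and none was called higher in the apex. The 7 were all C1q genes, Csf1r, Emr1, Cd68 and Aif1, with base over apex between 1.17-fold and 1.54-fold. A gene was called at a Benjamini-Hochberg adjusted p under 0.05 over all 19505 genes (limma over all 12 arrays). By this rule 21.6% of all genes were higher in the base than in the apex, 17.6% were higher in the apex and 39.2% differed in either direction. None of the 10 was called with a 2-fold difference, against 4.47% of all genes here, 0.39% between apex and middle turn and 2.66% between middle turn and base. The median log2 difference, apex minus base, was -0.36 over the 10 genes and -0.04 over all genes. The difference was below 0 for 9 of the 10 and above 0 for Ptprc, called or not. The genes were chosen with earlier results of these data known, so these counts describe them and are no independent support.

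The base was called higher than the middle turn for 6 of the 10 genes, which were the 7 above without Cd68. Of all genes, 9.21% were higher in the base than in the middle turn. None of the 10 was called between apex and middle turn, against 12% of all genes (4.42% apically higher and 7.59% with more signal in the middle turn). At an unadjusted p under 0.05 limma gave 1, Ptprc, against 32% of all genes. An ordinary fit without limma's pooling of variance also called none between apex and middle, against 12.6% of all genes. The median log2 difference over the 10 genes was -0.29 for middle minus base and -0.05 for apex minus middle. The comparisons with the base share its 4 arrays. Under any difference among the turns (limma's F test), 7 of the 10 passed, against 38.6% of all genes. The base was the highest turn for 9 of the genes, and the lowest was the apex for 6 of these and the middle turn for 3.

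**Figure D1:**
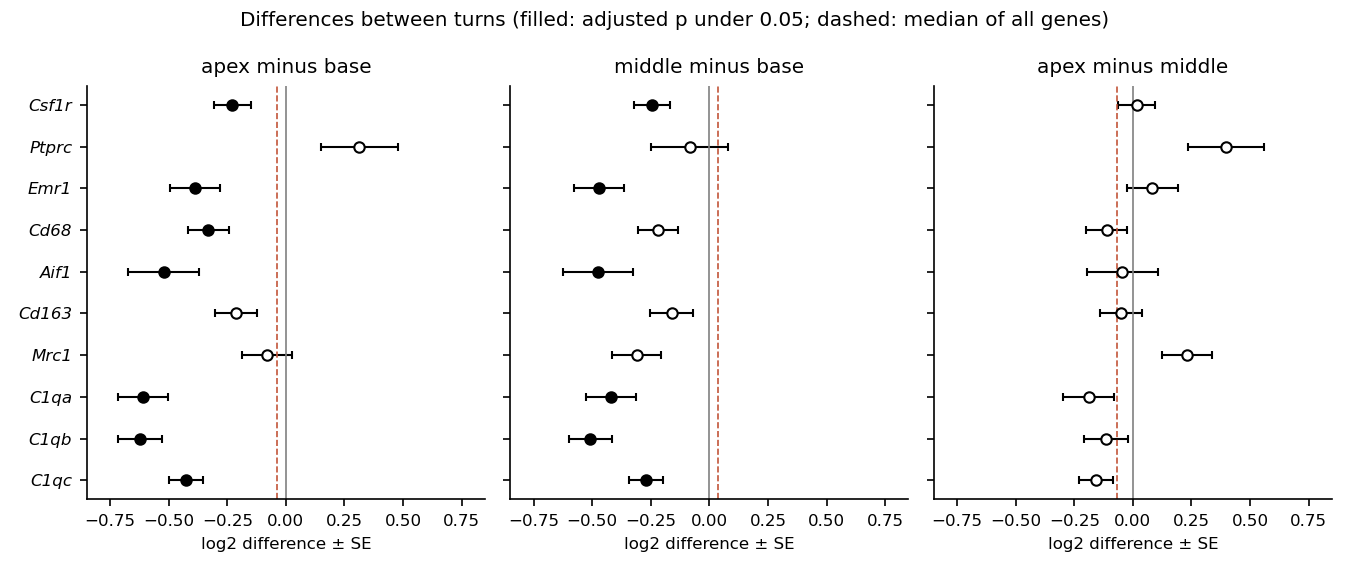
Log2 differences between turns for the 10 genes (points) with limma's standard error (bars), for apex minus base, middle minus base and apex minus middle, from 4 arrays a turn. Filled points had an adjusted p under 0.05, and the dashed line is the median of all 19505 genes: 7 filled points lie below 0 on the left, 6 in the centre and none on the right.

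The A chain of C1q, C1qa, read 919.5, 930, 1007 and 1201 in the apex, where signals are processed fluorescence scaled to a common 75th percentile. It read 1104, 1072, 1209 and 1217 on the middle arrays and 1413, 1870, 1421 and 1490 on the base arrays. Every base array lay above every array of the other turns. C1qa averaged 1014 ± 130.4 in the apex, 1151 ± 73.2 on the middle arrays and 1549 ± 217 in the base (SD, n = 4 each). Base over apex was 1.53-fold (log2 difference, apex minus base, -0.61, SE 0.11, limma adjusted p = 0.00108), and base over middle turn was 1.34-fold (adjusted p = 0.0185).

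C1qb, the B chain, gave signals of 635.1, 694.3, 716.6 and 845.7 in the apex. The middle turn gave 777.5, 713, 822 and 805.6, and the base 1048, 1252, 1032 and 1107. The base arrays again stood above all others, and the apex and middle arrays overlapped. The base exceeded the apex by 1.54-fold (log2 difference -0.62, SE 0.09, adjusted p = 0.000367) and the middle turn by 1.42-fold (adjusted p = 0.00417).

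C1qc, the C chain, read 1217, 1285, 1245 and 1383 in the apex. The middle arrays read 1392, 1396, 1376 and 1557, and those of the base 1713, 1957, 1637 and 1606. Base over apex was 1.35-fold (log2 difference -0.43, SE 0.07, adjusted p = 0.000847) and base over middle turn 1.21-fold (adjusted p = 0.0224). Of the middle arrays, 3 lay above all apex arrays, but apex and middle turn did not pass the test (log2 difference -0.16, adjusted p = 0.161). The call against the middle turn was lost without middle array 1, middle array 2 or base array 2 and in 3 other settings (adjusted p 0.0521 to 0.0938), and that of C1qa without middle array 1 (adjusted p = 0.0528) and unscaled (adjusted p = 0.0715). For all C1q genes the apex and middle arrays overlapped, and the base arrays lay above both.

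The C1q chains were compared with each other as the change in their log2 difference between apex and base. For C1qa minus C1qb this change, base minus apex, was -0.01 log2 units, with an SD between arrays of 0.05 in the apex and 0.07 in the base (two-sided exact permutation test over 70 splits of 4 against 4 arrays, p = 0.83, adjusted over 3 pairs 0.83). It was 0.18 for C1qa minus C1qc (exact p = 0.0857, adjusted 0.129). For C1qb minus C1qc it was 0.20 (exact p = 0.0286, the smallest this design can give, adjusted 0.0857). After adjustment no pair passed. The 2 probes of C1qc themselves differed in their base over apex ratio, as given with the sequences.

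**Figure D2:**
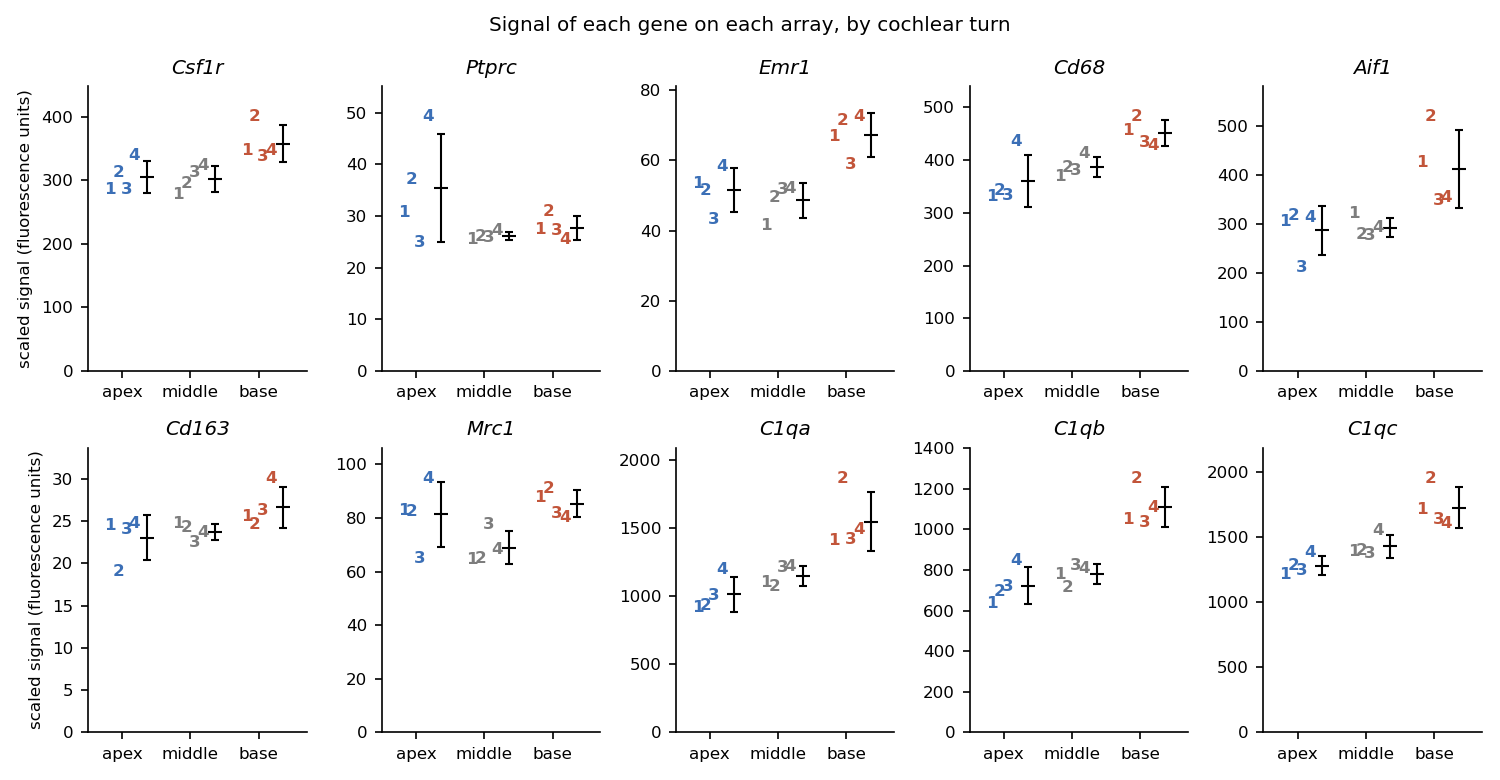
Scaled signal of each of the 10 genes on each array (digits are the array numbers within a turn, colours the turns), with the mean and SD of the 4 arrays as a bar to the right; each axis starts at 0. The base arrays of C1qa, C1qb and C1qc lie above all other arrays, while those of Csf1r, Ptprc, Cd68, Cd163 and Mrc1 overlap the apex.

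Csf1r encodes the receptor on which macrophages depend for survival. Its signals were 285, 312.2, 285.2 and 338.7 in the apex, and 277.3, 294.6, 311.9 and 322.9 on the middle arrays. In the base they were 346.9, 400.2, 337.6 and 346.1, with base array 3 just below the highest apex array and all 4 above the middle turn. Base over apex was 1.17-fold (log2 difference -0.23, SE 0.08, adjusted p = 0.0370) and base over middle turn 1.19-fold (adjusted p = 0.0467). Both calls lay close to the threshold. That against the middle turn was lost in 15 of 27 alternatives, among them normexp background correction (adjusted p = 0.0514), ordinary tests without pooled variance (adjusted p = 0.0542) and the median of probes (adjusted p = 0.323). It was also lost without any of 9 single arrays (adjusted p up to 0.132). The apex call was lost when any of apex arrays 1, 2 or 3 or base arrays 1, 2 or 4 was left out (adjusted p up to 0.108). Over all arrays left out in turn the log2 difference ran from -0.28 to -0.17. The apex call was also lost with the median of probes (adjusted p = 0.0852), with only the arrays of the 2 turns (adjusted p = 0.0577) and unscaled (adjusted p = 0.3785).

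Ptprc encodes CD45, a tyrosine phosphatase on the surface of nearly all white blood cells. Apex arrays read 30.59, 37.13, 24.92 and 49.23, middle arrays 25.34, 25.97, 25.89 and 27.17, and base arrays 27.36, 30.92, 27.15 and 25.45. The apex held both the highest and the lowest array of all 12, and its SD on the log2 scale was 0.42, against 0.04 for the middle turn and 0.12 for the base. The log2 difference between apex and base was 0.31 (SE 0.16, adjusted p = 0.165), that between apex and middle turn 0.40 (adjusted p = 0.128), and neither was called. Without apex array 3 the apex exceeded the base (0.47, adjusted p = 0.0215) and the middle turn (0.55, adjusted p = 0.0380), and without apex array 4 the value against the base was 0.14 (adjusted p = 0.408). Scaling to the spike-in probes turned its direction to -0.17 (adjusted p = 0.411).

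Neutrophils also carry CD45, and markers of that cell varied with Ptprc across the apex. The summed signal of 10 neutrophil markers was 4651, 16070, 974 and 36360 on apex arrays 1 to 4. The apex arrays thus had the same order for Ptprc and for the neutrophil sum, with array 4 highest and array 3 lowest. The T and NK cell sum (534.9, 571.7, 504.7 and 727.4) and the macrophage sum (15910, 18850, 15830 and 21350) had that order on the apex arrays too, and those cells also carry CD45. On the middle arrays the sum was 4518, 8572, 998.9 and 805.1 while Ptprc stayed between 25.34 and 27.17, and on the base arrays it ran from 1120 to 2075. Of the neutrophil markers, 1 of 10 passed the test between apex and base, against 39.2% of all genes. It was Ltf, which encodes the iron-binding granule protein lactoferrin (199 ± 128 in the apex, 50.2 ± 9.51 in the base, adjusted p = 0.0141). The part of any of these cells in the Ptprc signal was not tested.

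**Figure D3:**
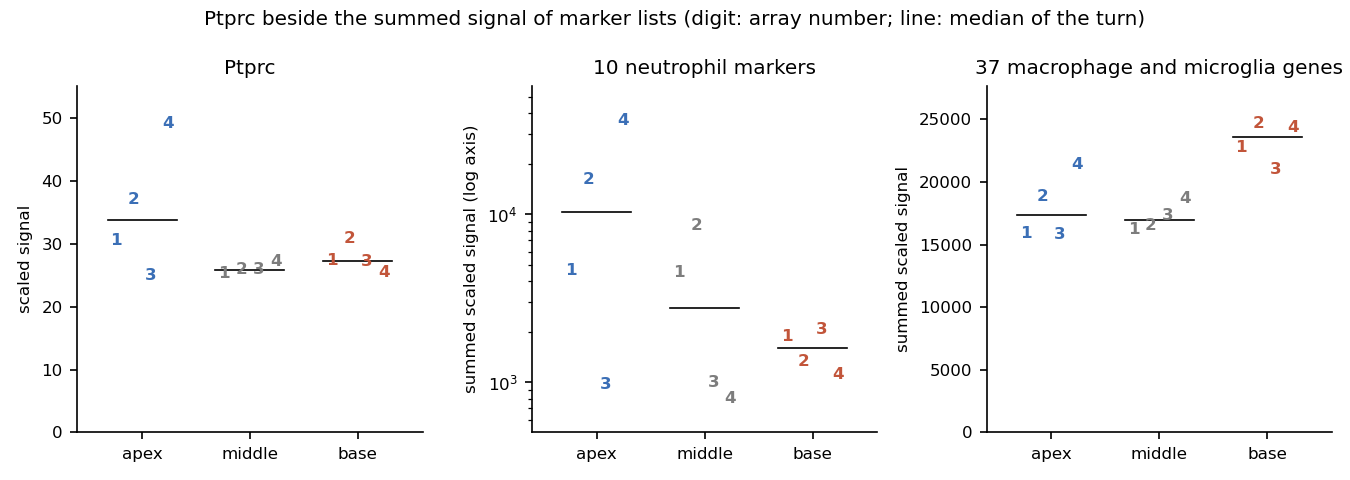
Scaled signal of Ptprc (left), summed signal of 10 neutrophil markers (centre, log axis) and of 37 macrophage and microglia genes (right) on each array, with digits for array numbers and a line for the median of the turn. Ptprc and the neutrophil sum are both highest on apex array 4 (49.23 and 36360) and, within the apex, lowest on array 3, while the macrophage sum of every base array except array 3 exceeds all others.

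Emr1 encodes F4/80, an adhesion receptor long used to identify mouse macrophages. Its signals were 53.49, 51.43, 43.18 and 58.25 in the apex. Middle arrays gave 41.42, 49.32, 51.81 and 51.88, and base arrays 66.85, 71.24, 58.68 and 72.49. All base arrays exceeded all apex and middle arrays, with base array 3 only just above apex array 4. Base over apex was 1.31-fold (log2 difference -0.39, SE 0.11, adjusted p = 0.0137) and base over middle turn 1.39-fold (adjusted p = 0.0115). With the median of its probes in place of the mean, the values fell to -0.12 (adjusted p = 0.562) against the apex and -0.33 (adjusted p = 0.120) against the middle turn, and neither passed. Under normexp background correction the second was -0.16 (adjusted p = 0.0667), and unscaled the first was -0.36 (adjusted p = 0.131). Of its 22 probes (chr17:57498120-57622927), 8 were well above background on all 12 arrays.

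Cd68 (chr11:69477940-69479038), a glycoprotein of macrophage lysosomes, gave 330.7, 341.5, 333.4 and 434.8 on apex arrays, 368.3, 385.8, 380.3 and 412.6 on middle arrays and 456.7, 482.7, 434.3 and 428.5 on base arrays. Apex array 4 stood well above the other apex arrays and within the range of the base. The base exceeded the apex by 1.26-fold (log2 difference -0.33, SE 0.09, adjusted p = 0.0103). Unscaled, this call was lost (adjusted p = 0.1615). All base arrays lay above the middle turn, yet that difference did not pass (1.17-fold, adjusted p = 0.0964). It passed without apex array 4, which enters the shared estimate of spread (adjusted p = 0.0203), with only the arrays of these turns (adjusted p = 0.0468) and under spike-in scaling (adjusted p = 0.0163).

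Aif1 (chr17:35307959-35309521) encodes IBA1, an actin-binding protein by which macrophages and microglia are stained. It read 304.6, 316.3, 211.4 and 313 on the apex arrays and 320.1, 279, 276.6 and 293 on the middle arrays. In the base it read 423.9, 518.4, 347.8 and 354.1. The base arrays did not overlap the other turns but were themselves widely spread. Base over apex was 1.44-fold (log2 difference -0.52, SE 0.15, adjusted p = 0.0175) and base over middle turn 1.39-fold (adjusted p = 0.0464). The second call was lost on leaving out any array except apex 3 and base 3 (adjusted p up to 0.125). It was also lost with the median of probes (adjusted p = 0.123) and with ordinary tests without pooled variance (adjusted p = 0.071). The same held unscaled (adjusted p = 0.0537) and without apex array 4 and base array 2 together. Unscaled, the first call was lost too (adjusted p = 0.0575).

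The endocytic receptors Cd163 and Mrc1 were not called in any comparison. Cd163 (chr6:124254740-124280523), the scavenger receptor for haemoglobin bound to haptoglobin, gave 24.4, 19.02, 23.94 and 24.66 on the apex arrays and 24.67, 24.19, 22.43 and 23.6 on the middle arrays. On base arrays it gave 25.54, 24.53, 26.22 and 30.07. Its log2 difference, apex minus base, was -0.21 (SE 0.09, adjusted p = 0.0882). It passed under quantile normalization (-0.33, adjusted p = 0.00253), under median scaling (-0.33, adjusted p = 0.0126), under spike-in scaling (-0.70, adjusted p = 0.000234) and with dim probes left out (-0.26, adjusted p = 0.0301), and its sign turned (0.11, adjusted p = 0.580) when only probes well above background on all 12 arrays were kept. Only 3 of its 15 probes met that condition, and 8 were not well above background on any array. The brightest probe (chr6:124275477) was higher in the apex by 0.87 log2 units, against -0.26 and -0.28 for the other two.

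Mrc1 (chr2:14151141-14253140) encodes the mannose receptor, a lectin of tissue-resident macrophages. It read 82.75, 82.49, 65 and 94.87 on apex arrays, 64.39, 64.97, 77.7 and 68.23 on middle arrays and 87.79, 90.96, 81.82 and 80.31 on base arrays. Apex and base overlapped (log2 difference -0.08, SE 0.11, adjusted p = 0.625). Under spike-in scaling, which moved all genes, this was -0.57 and passed (adjusted p = 0.00466), and without apex array 3 it was 0.02 (adjusted p = 0.859). All base arrays exceeded all middle arrays (log2 difference, middle minus base, -0.31, SE 0.11, adjusted p = 0.0605), which missed the threshold and passed under quantile, median and spike-in scaling and in 5 other settings. Between middle and base, 8 of the 10 genes did not overlap, against 11.6% of all genes, and between apex and base 5 did not, Emr1, Aif1 and the C1q genes, against 21.4%. Between apex and middle turn all 10 overlapped, while 7.31% of all genes were separated with the apex above, and 13.5% with the middle turn above.

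The probes of these genes lie along their exons, so each gene's difference can be followed along its transcript. Of the 131 probes, 85 were lower in the apex than in the base, and 78 were well above background on all 12 arrays. Csf1r was lower in the apex on 20 of 21 probes, Emr1 on 20 of 22, and Cd68 and Aif1 on all 5 of theirs. For Ptprc (chr1:139959485-140071695), 26 of 29 probes were higher in the apex, with 11 well above background throughout. Mrc1 was split, with 18 of 28 probes lower in the apex.

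**Figure D4:**
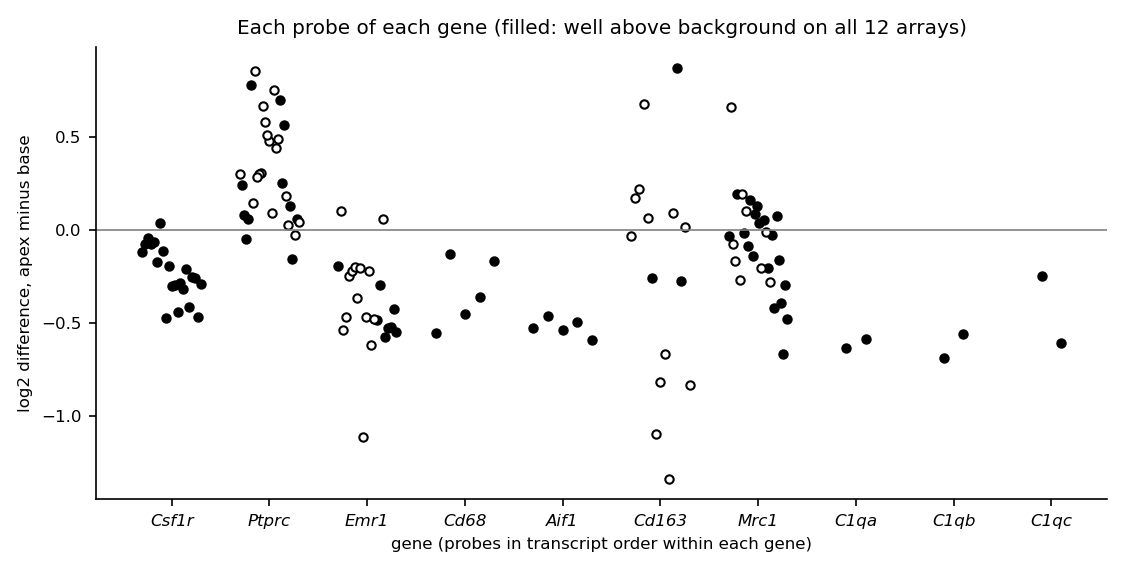
Log2 difference, apex minus base, of each probe of the 10 genes, in transcript order from left to right within a gene; filled points were well above background on all 12 arrays. All probes of Cd68, Aif1 and the C1q genes lie below 0, 26 of 29 Ptprc probes lie above 0, and the Mrc1 probes lie on both sides of 0 towards the 5′ end and mostly below 0 at the 3′ end.

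The balance between the 3′ and the 5′ part of transcripts differed between turns across the whole array. Over 7871 genes with at least 6 bright probes, the median log2 signal of the 3′ probes over the 5′ probes was 0.71 to 0.79 on the apex arrays, 0.81 to 0.83 on the middle arrays and 0.83 to 0.89 on the base arrays. The apex minus base difference was therefore lower at the 3′ end than at the 5′ end by a median of -0.10 log2 units (10th to 90th percentile -0.29 to 0.09). Csf1r was at -0.13 on its 5′ probes and -0.32 on its 3′ probes. Emr1 was at -0.39 and -0.50, and Mrc1 at 0.04 and -0.29, where 6.73% of genes had a more negative shift along the transcript. Ptprc kept values above 0 at both ends (0.22 and 0.17). For C1qa and C1qb the difference was as large on the probe nearer the 5′ end (-0.63 and -0.69) as on the other (-0.59 and -0.56), while for C1qc it was smaller there (-0.25 against -0.61). The part of this shift in the gene differences was not tested.

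Some arrays stood apart for these genes together. Apex array 4 was the highest of its turn for 9 of the 10 genes, base array 2 was the highest of its turn for 8 and of all 12 arrays for 6, and middle array 4 was the highest of its turn for 6. Apex array 4 also had the highest summed signal of all arrays for the neutrophil, B cell, T and NK cell, osteoclast and bone lists, and its bone sum was 18220 against 9824 to 11860 in the base. Without apex array 4 and base array 2 the base was still called higher than the apex for 7 of the 10 genes. In this setting 32% of all genes were called between apex and base, in either direction. Between middle and base the count fell to 3, while the share of all genes fell to 11.8% from 20.9%. Between apex and middle it rose to 1, C1qa, against 9.43% of all genes. Scaled to the same percentile, the mean of the 10 genes on the log2 scale, each centred on its own mean, was 0.12 on apex array 4 and ran from -0.26 to -0.12 on the other apex arrays, from -0.15 to -0.05 on middle arrays and from 0.12 to 0.36 on base arrays.

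Across the 12 arrays, members differed in how closely they followed the others. Pearson's r of a gene with the mean of the other members was 0.95 for Csf1r, 0.91 for Cd68, 0.89 for C1qb, 0.89 for Emr1, 0.87 for C1qa, 0.86 for C1qc and 0.84 for Aif1. It was 0.68 for Mrc1, 0.39 for Cd163 and 0.09 for Ptprc. The arrays share slides within turns, so these values describe the arrays and carry no test. Of 13007 other genes with bright probes, those most like the mean of the members were Fcer1g (r = 0.97), the signalling chain of Fc receptors, Ms4a7 (0.96), a membrane protein of macrophages, Gm885 (0.95) and Ctss (0.95), the lysosomal protease cathepsin S. They were followed by Sec23ip, Dclre1b, Tmem106a, Tcfe3, Fads2 and 2010002N04Rik, with r down to 0.93. The median r over these genes was 0.15 and the 99th percentile 0.88.

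In a wider list of 37 macrophage and microglia genes, 16 were higher in the base than in the apex, against 21.6% of all genes. The other direction held for 1, against 17.6% of all genes, and 20 did not pass. The median log2 difference was -0.32, against -0.04 over all genes. P2ry12, the ADP receptor of microglia, was 66.1 ± 6.14 in the apex, 75.2 ± 9.34 in the turn between and 126.3 ± 15.8 in the base, or 1.91-fold higher there (adjusted p = 9.64e-05). Ctss was 1448 ± 238 in the apex and 2611 ± 444 in the base, 1.80-fold higher (adjusted p = 0.000561). Hpgds, which makes prostaglandin D2, was the gene that went the other way, with 73.5 ± 9.12 in the apex against 34.4 ± 5.61 in the middle turn, and 40.3 ± 4.81 basally (apex over base 1.82-fold, adjusted p = 0.000380). Between middle and base 14 of the 37 were higher in the base, against 9.21% of all genes, and none in the middle turn, against 11.7%. Between apex and middle only Hpgds passed, against 12% of all genes. Of the 5 Hpgds probes, 2 were well above background on all 12 arrays and all 5 on all arrays of a turn.

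Ligands and regulators of the lineage did not move as a group. Of 17 genes, 3 passed as higher in the apex and 2 as higher in the base, against 17.6% and 21.6% of all genes, with a median of -0.09. The ligands Csf1 and Il34, named for their tie to Csf1r and not by size, gave log2 differences of -0.13 (adjusted p = 0.472) and -0.03 (adjusted p = 0.766), and Sfpi1, which encodes the transcription factor PU.1, gave -0.19 (adjusted p = 0.206). Flt3, a receptor of blood progenitors and dendritic cells, was 154 ± 12.9 in the apex and 69.7 ± 36.7 in the base (2.43-fold, adjusted p = 0.00571). Its base arrays ran from 36.31 to 121.5. Of its 24 probes, 10 were well above background throughout and all 24 on all arrays of a turn. The transcription factors Cebpa (1.87-fold, adjusted p = 0.000142) and Klf4 (1.41-fold, adjusted p = 0.000598) were higher in the base.

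The rest of the complement cascade was not uniformly higher in the base. Of 20 other components, 3 had more signal in the apex and 3 in the base, against 17.6% and 21.6% of all genes, and 14 did not pass (median -0.04). Among those called, C6 (11.29 in the apex, 9.636 in the base) and C9 (9.438 and 11.02) were dim. Only 2 of 15 and 1 of 10 of their probes were well above background throughout. C1s, a partner protease of C1q, ran against the C1q genes. It read 190 ± 13.2 in the apex, then 131 ± 4.26, then 98.3 ± 9.20 in the base (apex over base 1.94-fold, adjusted p = 4.47e-06). Its partners C1ra (log2 difference 0.09, adjusted p = 0.402) and C1rb (0.06, adjusted p = 0.695), named here for their place beside C1s, did not pass. C8g, a chain of the membrane attack complex, was 1.38-fold higher in the base (adjusted p = 0.000213), and Cfb, factor B of the alternative pathway, 1.31-fold (adjusted p = 0.00718), with 6 of its 17 probes well above background throughout.

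Among 15 complement regulators, the apex was higher for 4 and the base for 5, against 17.6% and 21.6% of all genes (median -0.10). The membrane inhibitors Csmd1 (2.25-fold, adjusted p = 0.000706) and Susd4 (2.10-fold, adjusted p = 0.0144) and factor I, Cfi (1.86-fold, adjusted p = 0.000485), were higher in the apex. Base arrays of Susd4 were widely spread, from 176.7 to 510.7. Of the 69 Csmd1 probes, 17 were well above background throughout and 41 on all arrays of a turn. None of 12 complement receptors passed between apex and base, against 39.2% of all genes (median -0.10). Among them were the brightest, Calr (log2 difference -0.25, adjusted p = 0.156) and C1qbp (-0.15, adjusted p = 0.0536), both of which bind C1q.

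**Figure D5:**
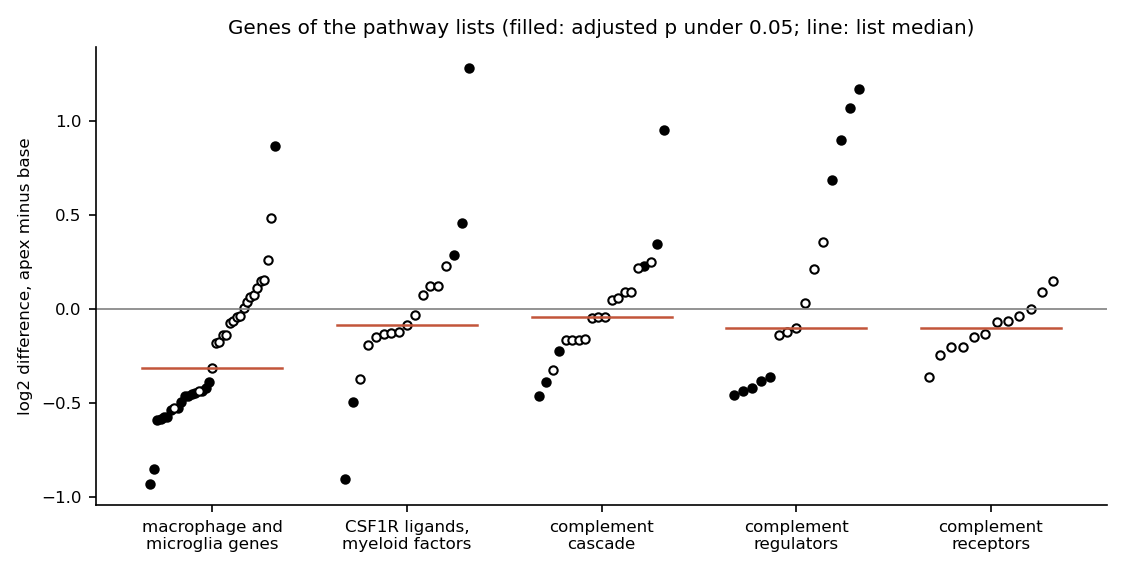
Log2 difference, apex minus base, of the genes in the macrophage and microglia list (37 genes), the list of CSF1R ligands and myeloid factors (17) and the complement cascade (20), regulator (15) and receptor (12) lists; filled points had an adjusted p under 0.05 and lines are list medians. Filled points of the first list lie below 0 except Hpgds, while those of the cascade and regulators lie on both sides.

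Markers of other cells in the dissected turns moved as well, in both directions. The shares of all genes beside these counts were 17.6% higher in the apex, 21.6% higher in the base and 39.2% either way. Of the cochlear lists, hair cell (7 of 7, including Otof) and neuron genes (7 of 8, including Nefm, with 1 the other way) were higher in the apex. Spiral ligament fibrocyte (6 of 6, including Coch), strial melanocyte (6 of 7, including Mlana) and stria marginal cell genes (4 of 6, including Kcnq1) were higher in the base, as were 5 of 8 endothelial genes against 2 in the apex. The lateral wall lists thus had the direction of 7 of the 10 genes and of 16 of the 37 in the wider list, and their part in each other's values was not tested. Among blood and bone lists, 1 of 7 B cell genes was higher in the apex (Cd79a), 1 of 9 bone genes (Dmp1, 2.13-fold) and 1 of 7 osteoclast genes (Tm7sf4, whose 3 probes were well above background in no turn) were higher in the base, and no gene of the T and NK cell (10 genes), mast cell (6), red cell (8) or platelet (6) lists passed. The bone sum was 3224, 5627, 3999 and 18220 on apex arrays 1 to 4. It ran from 5989 to 6868 on the middle arrays and from 9824 to 11860 on the base arrays, and its part in the values of the 10 genes was not tested. The red cell sum was 153700 to 314700 in the apex and 195500 to 384100 in the base.

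Promoter sequence was available for 7 of the 10 genes in the RefSeq table, on GRCm38.p6 and not on the build of the probes. The letters GAGGAA, the core of the site of PU.1, were searched on both strands, so that TTCCTC counts too, in the 250 bases before each start. They were present in a window of 6 of the 7 genes and in 23.3% of 32851 windows in the table. The count is by gene and the share by window, so the measures differ. Ptprc had 2 windows, of which 1 held a match. The windows of C1qb and C1qc are shown because these neighbours had the same direction, written 5′ to 3′ on the gene's strand with the match in capitals.
C1qb, chr4:136886201-136886450, minus strand: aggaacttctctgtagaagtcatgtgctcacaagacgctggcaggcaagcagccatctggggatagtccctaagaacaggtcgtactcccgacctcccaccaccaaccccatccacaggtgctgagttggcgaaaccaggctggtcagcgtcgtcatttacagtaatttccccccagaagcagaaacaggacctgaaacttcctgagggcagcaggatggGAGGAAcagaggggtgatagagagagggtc
C1qc, chr4:136892915-136893164, minus strand: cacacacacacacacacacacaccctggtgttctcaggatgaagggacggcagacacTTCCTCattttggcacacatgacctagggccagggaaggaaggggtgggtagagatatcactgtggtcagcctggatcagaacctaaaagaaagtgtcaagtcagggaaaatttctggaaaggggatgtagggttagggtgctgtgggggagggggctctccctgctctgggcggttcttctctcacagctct
The match began 30 bases before the start of C1qb and 193 bases before that of C1qc. Cd163 had no match in its window. Csf1r, Emr1 and C1qa had no entry in the table.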

How the data were processed

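Cyanine 3 labelled RNA from 12 cochlear samples was hybridized to exon arrays with 60-base probes placed on mm9. The deposited fluorescence intensities were made by the authors with Agilent Feature Extraction 10.7.3.1, which subtracted background and left the arrays unscaled. The deposited table of values holds the same intensities.

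Of 180880 spots an array, 7914 controls were left out. A spot that any array flagged (uneven, outlying or marked manually) was also dropped, which kept 165865 probes. Arrays were scaled to a common 75th percentile, as in the study's methods, log2 transformed, and averaged by probe and then by gene name. The 75th percentile ran from 534.6 to 722.1 before scaling, 77.4% to 81.4% of spots were well above background and no probe spot was saturated. The 4 arrays a turn limit the precision.

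Turns came from the sample labels. The 3 comparisons were fitted with limma 3.58.1 in R 4.3.3 over all 12 arrays, adjusted by Benjamini-Hochberg over 19505 genes, and tested on simulated data. The members and lists were chosen with earlier results of these data known. The text names all members, up to 3 genes a list with the largest apex to base difference among those that passed or else the brightest 2, and the 10 genes most like the members' mean. Where other genes are named, the text gives the reason. Alternatives are given in the closing section. Leaving out apex array 4 and base array 2 together, and keeping only probes well above background on all 12 arrays, were chosen after seeing the data. The result of 1 marker list is not reported here.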

Additional observations from a re-analysis of the deposited data

Results flagged for a closer look

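In 30 groups, each 1 gene in 1 turn, 5 had an array whose gap to its nearest neighbour was too large a part of the group's range by Dixon's 95% criterion, and chance flags about 1 in 20 groups. Csf1r read 400.2 on base array 2, with the other base arrays at 337.6 to 346.9. Cd68 read 434.8 on apex array 4, against 330.7 to 341.5 on the other apex arrays. Aif1 read 211.4 on apex array 3, against 304.6 to 316.3. Cd163 read 19.02 on apex array 2, against 23.94 to 24.66. C1qc read 1557 on middle array 4, against 1376 to 1396 on the other middle arrays.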

How the results depend on the processing

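No value reversed a call. C1qa, C1qb and C1qc stayed higher in the base than in the apex in all 27 alternatives. With no scaling of the deposited table, the genes called fell to 3 between apex and base and 2 between middle and base. The share of all genes called fell as well, to 18.5% from 39.2% and to 8.04% from 20.9%. Without scaling 2 were called for any turn and 6 in the macrophage list. Spike-in scaling gave 1 between apex and middle, against 40.7% of all genes. It gave 32 of 37 in the macrophage list, where 77.5% of all genes were called between apex and base. Of those calls over all genes, only 5.13% were higher in the apex. Leaving out dim probes gave 1 between apex and middle, against 16.2% of all genes. The median of probes gave 5 between apex and base and 3 between middle and base, against 34.9% and 16.6% of all genes. For any turn it gave 4. Using only the arrays of the 2 turns gave 6 between apex and base, against 37% of all genes. Without apex array 4 and base array 2, 1 gene was called for apex against middle and 3 for middle against base. The shares of all genes were 9.43% and 11.8%. Leaving out 1 array gave 6 to 7 genes between apex and base, against 33.3% to 39.4% of all genes. Between apex and middle it gave 0 to 2 (2 without apex array 3), against 4.95% to 18.1%. Between middle and base it gave 2 to 7 (2 without middle array 1), against 13.6% to 24.4%. For any turn it gave 4 to 8 (4 without base array 1 or 2). In the macrophage list it gave 11 to 19 (11 without apex array 1). The causes were not tested, beyond the smaller number of arrays.

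Scaling moved all genes together. The median of all genes, apex minus base, was -0.04 with the percentile, -0.15 with the median and -0.52 with spike-ins. The 10 genes' median lay -0.32 from it in each, which is fixed in advance because these scalings multiply all signals of an array alike. That distance was -0.19 with normexp background correction and -0.28 under quantile normalization. The share of calls higher in the apex was 45% with the percentile, 26.5% with the median, 5.13% with spike-ins and 59.7% unscaled. For apex against middle it was 36.8%, 18.6%, 2.69% and 87.4%, and for middle against base, as higher in the middle turn, 55.9%, 38.1%, 10.3% and 53.5%, with 44.9% under quantile normalization. Dim probes limit Cd163 and Ptprc.

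Whether sample numbers mark the same mouse is not given in the sources used here. Same-numbered arrays had deviations correlated at 0.095 on average (12 pairs, 6 over 0.1) against -0.031 for other numbers, and 8 of 12 arrays correlated best with their own number. With the number as a replicate block, the counts were 7, 0 and 6 in the 3 comparisons, 7 for any turn and 18 in the macrophage list. In the same 3 comparisons 41.9%, 17% and 26% of all genes were called.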
